A study of Mus musculus with 6 samples.

Results

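The PYHIN genes of mouse chromosome 1 were described in epiphyseal chondrocytes that lack Girk3 and in wild type chondrocytes. The members were the 10 rows of the deposited gene table named Pydc3, Pydc4, Gm4955, Pyhin1, Ifi202b, Ifi203, Ifi204, Ifi205, Mndal and Aim2, out of 43346 genes. Polyadenylated RNA was sequenced from 3 Girk3-null and 3 wild type mice, all 5 days old, male and C57BL/6 per the labels. Cells were released from epiphyseal cartilage with collagenase and the labels give no sort, so a library can hold RNA of other cells of the digest. The labels call the null genotype Girk3 KO; how the allele was made and bred is not given in the sources used here. The members lie between 173350879 and 174031810 on chromosome 1 (mm10), a stretch of 0.681 Mb that starts 1.02 Mb beyond the end of Kcnj9, the gene that encodes Girk3. The genes were chosen by name, and the set was selected on the counts and RPKM values of these same 6 libraries, with the genotype difference of several of them already seen. Their levels in the genotypes are therefore a description, and no p-value is attached to them.

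PYHIN proteins carry a pyrin domain, which binds other pyrin domains, a HIN domain, which binds DNA, or both. Most genes of the family are induced by interferons, and the cluster is larger in mice than in humans and differs between inbred mouse strains. Aim2, the best known member, senses double-stranded DNA in the cytosol and assembles an inflammasome with the adaptor Asc and caspase-1. Its mouse relatives Ifi202b (p202), Ifi204 (p204) and Ifi205 (p205) act in DNA sensing, growth control and differentiation, and p204 has been studied as a coactivator of Runx2 in mouse osteoblasts.

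Total counts ranged from 34279516 to 60392837 per library, and 17554 genes had enough counts to be tested. Kcnj9 itself (ENSMUSG00000038026; chromosome 1, 172320501 to 172329318) had 0 counts in all 6 libraries, so it gave no check of the genotype labels. Levels in CPM are counts scaled to library size, and the floor of 3 counts below which a 0 says nothing lay between 0.0497 and 0.0875 CPM. Girk3-null replicate 1 held 16088 counts of Y-linked genes (summed over Ddx3y, Eif2s3y, Kdm5d, Uty), while the remaining libraries held 7 or fewer and 67346 to 144825 counts of Xist, although all mice are labelled male. Chondrocyte markers were abundant in every library. Col2a1, the collagen of cartilage, had 8392 to 13737 RPKM (reads scaled to gene length and library size) in Girk3-null and 5196 to 8887 RPKM in wild type libraries.

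Upstream sequences were read from RefSeq (build GRCm38.p6), 250 bases before each listed start, for 9 of the 10 members, all but Ifi204. They were searched on both strands for GAAANNGAAA, the core of the interferon-stimulated response element, and for TTCNNNGAA, the site form bound by activated STAT dimers. The first occurred upstream of 6 members (Pydc3, Pydc4, Gm4955, Ifi203, Ifi205 and Mndal). It occurred upstream of 936 of all 27025 genes, and in 2.98% of all 32851 upstream sequences of that length. The second occurred upstream of 1 member, Ifi202b, against 2197 of all genes and 7.02% of all sequences. The 9 members had 11 listed starts, and a gene was counted if any start had a match. Ifi203 had no match before 1 of its starts. Mndal had another match, on the opposite strand, before its other start. The exact letters GAAATCGAAA stood in 13 of the 32851 sequences, and 6 of those belonged to genes of this family, 5 of them members. The windows below are shown because the 3 members with the fewest counts in Girk3-null libraries share the same stretch. Capitals mark the match.
Pydc3, chr1:173673582-173673641, plus strand: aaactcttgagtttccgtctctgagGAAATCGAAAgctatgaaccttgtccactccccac
Pydc4, chr1:173599311-173599370, minus strand: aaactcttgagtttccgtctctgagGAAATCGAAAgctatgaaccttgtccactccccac
Gm4955, chr1:173491324-173491383, minus strand: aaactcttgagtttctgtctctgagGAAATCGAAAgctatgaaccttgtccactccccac
Mndal, chr1:173880189-173880248, minus strand: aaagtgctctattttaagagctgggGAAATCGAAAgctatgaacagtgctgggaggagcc
Ifi203, chr1:173942493-173942552, minus strand: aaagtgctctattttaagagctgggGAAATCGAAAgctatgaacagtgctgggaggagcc
Ifi205, chr1:174031855-174031914, minus strand: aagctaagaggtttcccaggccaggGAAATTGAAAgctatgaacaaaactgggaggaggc

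The Pydc3 and Pydc4 windows were the same in all 60 bases, and the Gm4955 window matched that of Pydc3 in 59. Aligned on the match, the upstream sequences of Pydc3 and Gm4955 were identical in 231 of 232 bases, those of Pydc3 and Pydc4 in 233 of 235. The Mndal and Ifi203 windows were also the same in all 60 bases, while they shared 34 with the Pydc3 window. Pyhin1 had no match. Its nearest stretch to GAAATCGAAA had 1 mismatch, G1T counted from the 5′ end of those letters, and is printed with the stretch in capitals; the window of Ifi202b is printed with TTCTCAGAA in capitals.
Pyhin1, chr1:173630755-173630814, plus strand: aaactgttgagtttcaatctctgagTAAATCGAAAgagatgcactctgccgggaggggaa
Ifi202b, chr1:173982959-173983017, minus strand: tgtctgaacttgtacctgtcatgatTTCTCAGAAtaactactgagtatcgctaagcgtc

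Of the 10 members, 5 had every Girk3-null library below every wild type library, 0 had every Girk3-null library above, and 5 had groups that overlapped. Over all tested genes, 10.2% had every Girk3-null library below every wild type library and 9.86% above. Since the members were listed with this contrast known, nothing is read from their count. Over the whole table, edgeR's quasi-likelihood test called 1 gene at an adjusted p under 0.05 (0.0057%), which was not a member. It had 2548 genes at an unadjusted p under 0.05, and DESeq2 called 339 genes after adjustment. Without Girk3-null replicate 1, 6 members had every Girk3-null library below every wild type library, Aim2 being the added one, as did 14.3% of the genes then tested. All 10 members passed the filter on low counts. Gm4955, Pydc4 and Pydc3 passed through their wild type libraries, since each had fewer than 10 counts in every Girk3-null library.

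**Figure D1:**
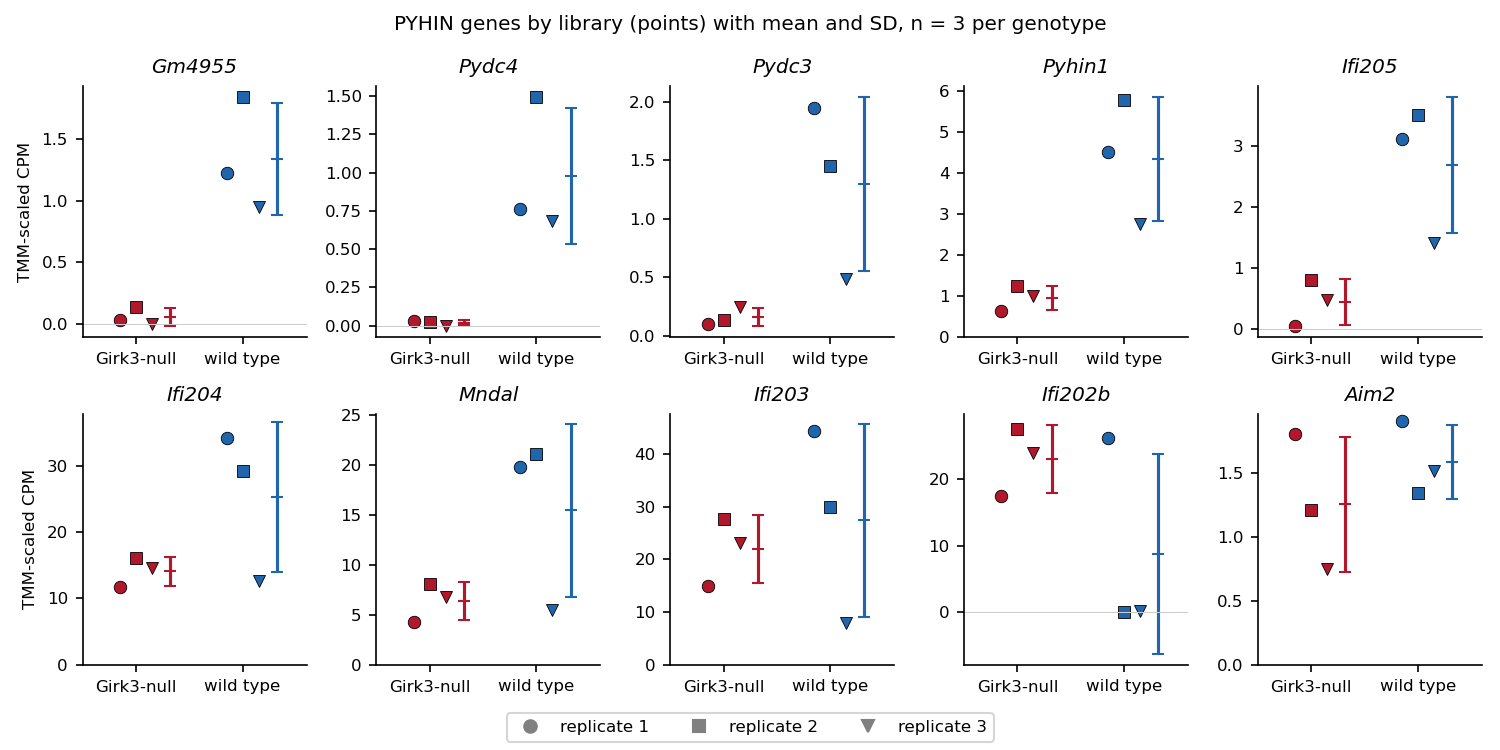
TMM-scaled CPM of each of the 10 PYHIN genes, with 1 panel per gene, a linear axis per panel, points for libraries (Girk3-null left, wild type right) and bars for mean and SD (n = 3 each). In the upper row all Girk3-null points lie below all wild type points; in the Ifi202b panel wild type replicate 1 stands with the Girk3-null libraries and the other 2 wild type libraries lie near 0.

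Gm4955, Pydc4 and Pydc3 were close to undetected in Girk3-null chondrocytes and were counted in every wild type library. Pydc4 (ENSMUSG00000073491; chromosome 1, 173566284 to 173599274; RefSeq name Ifi213) had 2, 1 and 0 counts in Girk3-null replicates 1, 2 and 3, against 36, 81 and 28 counts in wild type replicates 1, 2 and 3. Gm4955 (ENSMUSG00000037849; chromosome 1, 173468509 to 173491041; RefSeq name Ifi206) had 2, 6 and 0 counts in Girk3-null libraries, against 58, 100 and 39 counts in wild type libraries. Pydc3 (ENSMUSG00000066677; chromosome 1, 173673675 to 173698392; RefSeq name Ifi208) had 6, 6 and 8 counts in Girk3-null libraries, against 92, 79 and 20 counts in wild type libraries. The lowest wild type count of each gene was thus above its highest Girk3-null count, and wild type replicate 3 was the lowest of the wild type libraries for all 3 genes.

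Summed over the 3 libraries of a genotype, Pydc4 had 3 counts in Girk3-null and 145 in wild type libraries. Scaled to library totals this is a ratio of 0.0203 (95% exact interval 0.00414 to 0.0605). The ratio was 0.0398 (0.017 to 0.0801) for Gm4955, from 8 and 197 counts, and 0.103 (0.0614 to 0.163) for Pydc3, from 20 and 191 counts. These intervals cover counting error only. Fitted log2 fold changes (Girk3-null over wild type) were -5.33 with a standard error of 0.68 for Pydc4, -4.44 with 0.69 for Gm4955 and -3.05 with 0.61 for Pydc3, and at such low counts they depend on the prior count of the fit. That of Gm4955 was -5.81 without Girk3-null replicate 2, and that of Pydc4 was -5.95 without Girk3-null replicate 1. Genes of this family resemble each other, and 20.8%, 15.6% and 15.8% of the 50-base words in the GENCODE M21 transcripts of Pydc3, Pydc4 and Gm4955 also occurred in another family gene. How the authors' counting treated reads from such words is not given, so the split between these genes is uncertain.

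Pyhin1 and Ifi205 were lower in Girk3-null libraries, at mean levels in each genotype above those of the 3 genes. In Girk3-null replicate 1, however, Ifi205 had 3 counts and Pydc3 had 6. Pyhin1 (ENSMUSG00000043263; chromosome 1, 173630917 to 173647928; RefSeq name Ifi209) measured 0.641, 1.24 and 0.998 CPM in Girk3-null libraries, against 4.51, 5.78 and 2.76 CPM in wild type libraries. It averaged 0.959 ± 0.3 CPM over the Girk3-null libraries, against 4.35 ± 1.52 CPM over the wild type libraries (SD, n = 3 each), with a log2 fold change of -2.19 and a standard error of 0.36. No Girk3-null library reached any wild type library. Of its 50-base words 33.4% were shared with BC094916, another family gene, which had 25 counts in all Girk3-null and 23 in all wild type libraries together.

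Ifi205 (ENSMUSG00000054203; chromosome 1, 174011998 to 174031810) encodes p205, which in mouse macrophages controls the expression of Asc. It had 3, 35 and 15 counts in Girk3-null libraries, against 147, 191 and 58 counts in wild type libraries, so Girk3-null replicate 1 stood far below the other Girk3-null libraries. It averaged 0.440 ± 0.377 CPM over the Girk3-null libraries, against 2.68 ± 1.11 CPM over the wild type libraries (SD, n = 3 each). The log2 fold change was -2.65 with a standard error of 0.72, and it was -2.06 without Girk3-null replicate 1 and -3.55 without Girk3-null replicate 2.

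Ifi202b split the 6 libraries along a line other than genotype. Ifi202b (ENSMUSG00000026535; chromosome 1, 173962568 to 173982744) encodes p202, which has HIN domains without a pyrin domain, can oppose Aim2, and is known as a lupus candidate gene whose RNA level differs widely between inbred strains. It had 1035, 1204 and 771 counts in Girk3-null replicates 1, 2 and 3, against 1236, 4 and 6 counts in wild type replicates 1, 2 and 3. In TMM-scaled CPM these were 17.5, 27.6 and 24.0 in Girk3-null, against 26.2, 0.0736 and 0.146 in wild type libraries. Wild type replicate 1 lay within the range of the Girk3-null libraries, and wild type replicates 2 and 3 held few reads of the gene. The wild type mean of 8.80 CPM with an SD of 15 therefore describes none of the wild type libraries.

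The fitted log2 fold change of Ifi202b was 1.39 with a standard error of 1.38, and 7.73 without wild type replicate 1. It was 0.80 without wild type replicate 2 and 0.82 without wild type replicate 3. Of all counts over the 10 members, Ifi202b took 34.2% (95% exact interval 32.5 to 35.9), 33.3% (31.8 to 34.9) and 33.8% (31.9 to 35.8) in Girk3-null replicates 1, 2 and 3. Its share was 19.0% (18.0 to 20.0), 0.0769% (0.0210 to 0.197) and 0.431% (0.158 to 0.936) in wild type replicates 1, 2 and 3. These intervals, too, cover counting error only. The 3 shares of the Girk3-null libraries lay close together, while those of the wild type libraries did not. None of its 50-base words occurred in the transcripts of another family gene of the table.

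One other row of the cluster split the libraries in the same way, and it was picked after its values were seen. RP23-436K7.4 (ENSMUSG00000102433; chromosome 1, 173849149 to 173850780; an unprocessed pseudogene) had 47, 80 and 44 counts in Girk3-null libraries, against 46, 0 and 1 counts in wild type replicates 1, 2 and 3. In GENCODE M21 it shares 118 exonic bases with Mndal on the same strand, and none of its 50-base words occurred in Ifi202b. The library that stood with the Girk3-null group for these genes, wild type replicate 1, stood with the wild type group for Gm4955, Pydc4, Pydc3, Pyhin1 and Ifi205.

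**Figure D2:**
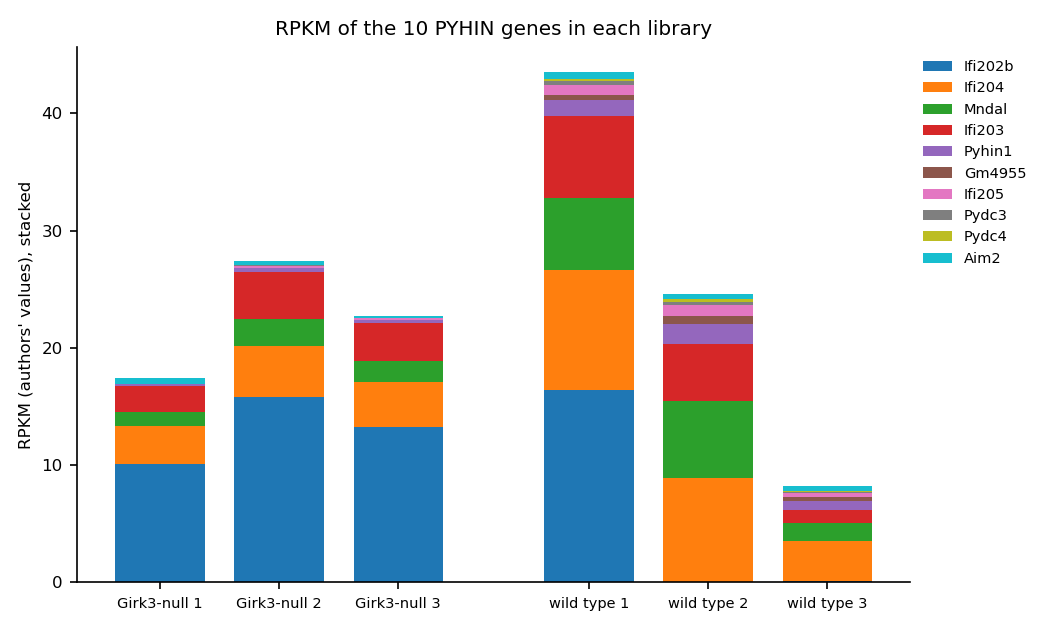
RPKM of the 10 PYHIN genes, as deposited by the authors, stacked for each library (Girk3-null left, wild type right; the axis starts at 0). Ifi202b holds the largest segment in all 3 Girk3-null libraries and in wild type replicate 1 and is not visible in wild type replicates 2 and 3, and the stacks total 17.5, 27.4 and 22.8 RPKM in Girk3-null and 43.5, 24.6 and 8.19 RPKM in wild type libraries.

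Ifi203, Ifi204 and Mndal were the most abundant members beside Ifi202b, and their groups overlapped because wild type replicate 3 was low. Ifi204 (ENSMUSG00000073489; chromosome 1, 173747293 to 173766943) measured 11.7, 16.0 and 14.6 CPM in Girk3-null libraries, against 34.1, 29.2 and 12.6 CPM in wild type libraries. Its log2 fold change was -0.84 with a standard error of 0.32. Mndal (ENSMUSG00000090272; chromosome 1, 173857220 to 173942491), named for its likeness to human MNDA, measured 4.29, 8.05 and 6.80 CPM in Girk3-null libraries, against 19.8, 21.1 and 5.47 CPM in wild type libraries. Its log2 fold change was -1.28 with a standard error of 0.46.

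Ifi203 (ENSMUSG00000039997; chromosome 1, 173920407 to 173942672), an interferon-inducible nuclear protein, measured 15, 27.7 and 23.1 CPM in Girk3-null libraries, against 44.3, 29.9 and 7.95 CPM in wild type libraries. Wild type replicate 3 was thus below every Girk3-null library and the other wild type libraries above. The log2 fold change was -0.33 with a standard error of 0.51, and its sign turned without wild type replicate 1 (0.20). Without wild type replicate 3 all 3 genes had every Girk3-null library below the remaining wild type libraries, as then did 22.2% of the genes tested. The span of Mndal in the table covers Mnda and most of Ifi203, and in GENCODE M21 its exons share 37 bases with those of Ifi203, so reads from those bases cannot be told apart. Of the 50-base words of Mndal, Ifi203, Ifi204 and Ifi205, 17.7%, 12.2%, 19.2% and 18.6% also occurred in another family gene.

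The 6 titles carry numbers below 200 (Girk3-null replicate 1, wild type replicates 1 and 2) or above 200 (Girk3-null replicates 2 and 3, wild type replicate 3), and what the numbers mean is not given. Among numbers above 200 the differences of Ifi203, Ifi204 and Mndal were of the other sign. Ifi203 then averaged 25.4 CPM in Girk3-null libraries, against 7.95 in the wild type library, Ifi204 15.3 and 12.6, and Mndal 7.42 and 5.47. Below 200 Ifi203 measured 15 CPM in Girk3-null and 37.1 in wild type libraries, Ifi204 11.7 and 31.6, and Mndal 4.29 and 20.4. The 5 members without overlap were lower in Girk3-null libraries in both ranges, which their lack of overlap over all 6 libraries fixes in advance. Their log2 ratios below and above 200 were -5.06 and -5.90 for Pydc4, -5.51 and -3.79 for Gm4955, -4.07 and -1.33 for Pydc3, -3.00 and -1.30 for Pyhin1, and -6.03 and -1.16 for Ifi205. For Ifi202b they were 0.41 and 7.46, and for Aim2, whose sign also differed between the ranges, 0.15 and -0.62. Each range holds 3 libraries, so no test was made within them. Wild type replicate 3 is the only wild type library above 200, and Girk3-null replicate 1 the only Girk3-null library below. A change of sign between the ranges can thus rest on 1 library, and the -6.03 of Ifi205 rests on 3 counts in Girk3-null replicate 1.

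Aim2, the cytosolic DNA sensor (ENSMUSG00000037860; chromosome 1, 173350879 to 173466040), measured 1.81, 1.21 and 0.748 CPM in Girk3-null libraries, against 1.91, 1.34 and 1.51 CPM in wild type libraries. The groups overlapped, and the means of 1.26 ± 0.53 and 1.59 ± 0.289 CPM (SD, n = 3 each) differed by less than the SD of the Girk3-null libraries. The log2 fold change was -0.32 with a standard error of 0.35. It was -0.68 without Girk3-null replicate 1 and -0.06 without Girk3-null replicate 3. Aim2 shared none of its 50-base words with another family gene. Its span overlaps that of Cadm3 on the opposite strand, with no exonic base in common in GENCODE M21.

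Summed over the members, the cluster measured 51.1, 82.9 and 71.0 CPM in Girk3-null libraries, against 138, 95.7 and 34.0 CPM in wild type libraries. The groups overlapped, with a ratio of means of 0.766, and without wild type replicate 1 the ratio was 1.05. Without Ifi202b the sums were 33.6, 55.3 and 47.0 CPM in Girk3-null libraries, against 112, 95.6 and 33.8 CPM in wild type libraries, a ratio of 0.564. How reads were divided among the members alone does not change the sum over all 10. Reads from stretches shared with family genes outside the members, such as BC094916 for Pyhin1 and Mnda for Ifi205, can change it. The authors' treatment of reads that match several genes is not given, so such reads may also be missing from the sum.

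Per length, Ifi202b led the members in Girk3-null libraries and Ifi204 in wild type libraries. In Girk3-null libraries Ifi202b had 13.0 ± 2.86 RPKM, above Ifi204 with 3.81 ± 0.577, Ifi203 with 3.14 ± 0.911 and Mndal with 1.78 ± 0.528 RPKM (SD, n = 3). Ifi202b did not overlap Ifi204, and Mndal did not overlap Aim2 (0.348 ± 0.153 RPKM), while every other pair of neighbours in this order overlapped. Pyhin1, Ifi205, Pydc3, Gm4955 and Pydc4 followed with mean RPKM of 0.260, 0.101, 0.0296, 0.0183 and 0.0027. In wild type libraries Ifi204 came first with 7.49 ± 3.59 RPKM, then Ifi202b with 5.52 ± 9.45, Mndal with 4.76 ± 2.8 and Ifi203 with 4.34 ± 2.98 RPKM, and Pydc4 came last with 0.150 ± 0.0743 RPKM. There all neighbours overlapped, and Ifi202b ranged over 0.0468 to 16.4 RPKM.

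The table holds 4 further genes of the family, and none had groups without overlap. Of all tested genes, 10.2% had every Girk3-null library below every wild type library and 9.86% above. AI607873 (RefSeq name Ifi207) had 284, 430 and 218 counts in Girk3-null libraries, against 837, 839 and 228 counts in wild type libraries, with a log2 fold change of -0.86 and a standard error of 0.42. Mnda (RefSeq name Ifi211) had 239, 311 and 201 counts in Girk3-null libraries, against 495, 413 and 137 counts in wild type libraries. Its log2 fold change was -0.30 with a standard error of 0.39. The pseudogene Gm16340 had 148 counts in Girk3-null and 373 in wild type libraries in all (log2 fold change -1.16, standard error 0.60). BC094916 had 25 counts in Girk3-null and 23 in wild type libraries in all and was not tested. AI607873, Mnda and Gm16340 were lowest among the wild type libraries in replicate 3, like Ifi203, Ifi204 and Mndal. Cadm3, a cell adhesion gene beside Aim2 and outside the family, had groups that overlapped (log2 fold change -0.13, standard error 0.35).

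**Figure D3:**
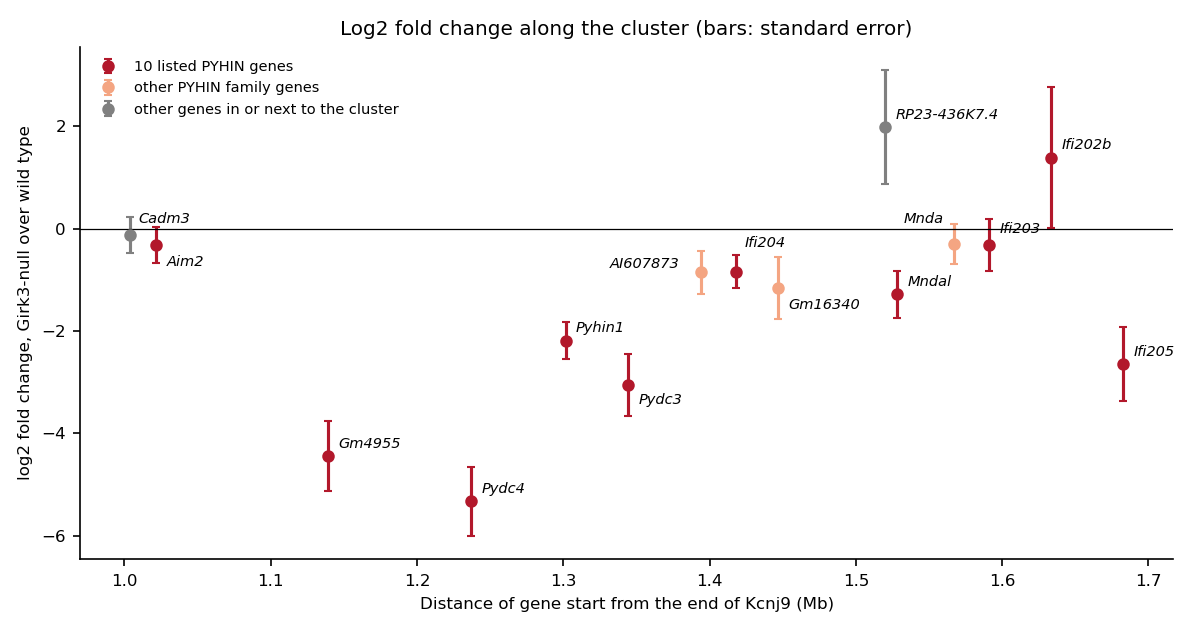
Log2 fold change (Girk3-null over wild type, edgeR) with its standard error against the distance of each gene's start from the end of Kcnj9 in Mb, for the 10 PYHIN genes, 3 other tested family genes and 2 other tested genes in or next to the cluster. Pydc4 and Gm4955 have the lowest values, -5.33 and -4.44, and lie between Aim2 at -0.32 and Ifi204 at -0.84; the wide bars of Ifi202b and RP23-436K7.4 reflect the split among wild type libraries.

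Interferon-stimulated genes outside the family were on average highest in wild type replicates 1 and 2, while wild type replicate 3 lay among the Girk3-null libraries. Of 26 listed genes, all were tested, 0 passed in edgeR over all genes (2 lower and 0 higher at an unadjusted p under 0.05, 0 in DESeq2), 25 had negative log2 fold changes, and the median was -0.67, beside a median of 0.01 over all tested genes. The median was -0.21 without wild type replicate 1 and -1.07 without Girk3-null replicate 2. None of the 26 had groups without overlap. Over all tested genes, every Girk3-null library lay below every wild type library for 10.2% and above for 9.86%. In edgeR 2548 of all 17554 tested genes had an unadjusted p under 0.05, in either direction. Their mean log2 CPM was 2.65, 3.78 and 3.08 in Girk3-null replicates 1, 2 and 3, against 4.61, 4.03 and 2.84 in wild type replicates 1, 2 and 3. The 4 with the highest RPKM were Ifitm3, Bst2 and Isg15, antiviral effectors, and Ifit3, which binds viral RNA complexes, with log2 fold changes of -0.23, -0.10, -0.40 and -0.57.

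Taken relative to the mean of this list in the same library, the members showed different patterns, in a comparison chosen after the data were seen. Pydc4, Gm4955, Pydc3, Pyhin1 and Ifi205, which were without overlap before the subtraction, had every Girk3-null library below every wild type library. Their differences were -3.34, -3.33, -1.91, -1.46 and -2.23 on the log2 scale. Ifi204 differed by -0.08 and Mndal by -0.43, and their groups overlapped. Ifi203 and Ifi202b had every Girk3-null library above every wild type library, by 0.61 and 5.42. For Ifi203 the lowest Girk3-null value was 1.01 and the highest wild type value 0.88. The share of all genes without overlap on this relative scale was not computed, so nothing is read from which members separate. The part of interferon-stimulated expression in the members' levels was not tested.

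**Figure D4:**
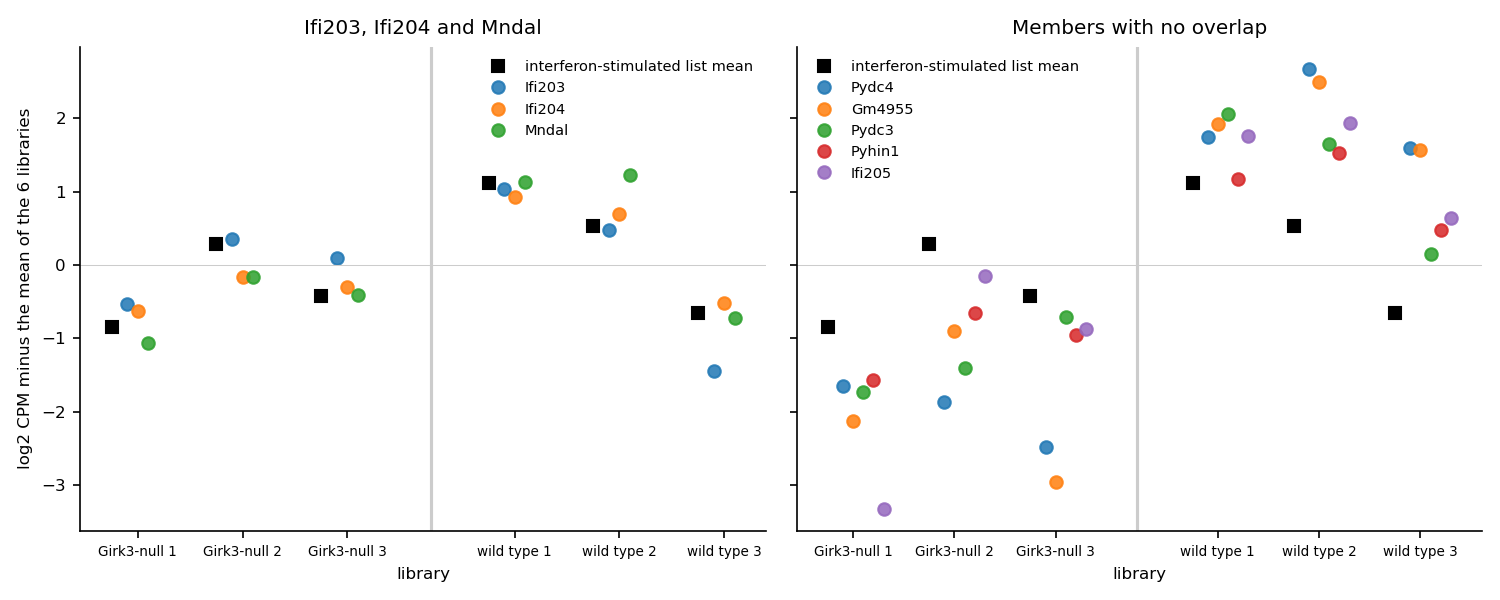
Log2 CPM minus the mean of the 6 libraries, for each library (Girk3-null left, wild type right), for Ifi203, Ifi204 and Mndal (left panel) and for the 5 members without overlap (right panel), beside the mean of 26 interferon-stimulated genes (squares). In the left panel the genes lie near the squares in most libraries, with Ifi203 lower in wild type replicate 3; in the right panel they lie below the squares in all Girk3-null libraries and above them in all wild type libraries.

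Of 16 listed genes that make or transmit the interferon signal, 13 were tested, and 0 passed in edgeR (0 lower and 1 higher at an unadjusted p under 0.05, 0 in DESeq2). At that unadjusted threshold edgeR had 2548 of all 17554 tested genes, in either direction. The median log2 fold change was -0.11. Every Girk3-null library lay below every wild type library for 3 genes and above for 2, beside 10.2% and 9.86% of all tested genes. The interferon genes Ifnb1, Ifna4 and Ifng had too few counts to be tested, and Ifna4 had 0 in every library. The 4 with the highest RPKM were the kinase genes Jak2 and Jak1 and the interferon gamma receptor genes Ifngr2 and Ifngr1, with log2 fold changes of -0.21, -0.15, -0.12 and -0.14. Of the 14 DNA sensing and inflammasome genes all were tested, 0 passed in edgeR (0 at an unadjusted p under 0.05, 0 in DESeq2) and the median was -0.08. Negative log2 fold changes were found for 11, and 1 had every Girk3-null library below every wild type library, beside 10.2% of all tested genes. The 4 with the highest RPKM follow. Il1b, a cytokine that inflammasomes release, measured 20.7 ± 3.73 RPKM in Girk3-null and 22.8 ± 5.51 RPKM in wild type libraries. Tmem173, the STING adaptor of DNA sensing, had a log2 fold change of -0.10, the kinase gene Tbk1 -0.18 and the helicase gene Ddx41 0.03.

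Markers of other cells of a cartilage digest moved with the genotypes to different degrees. In bulk RNA, fewer cells of a type and less RNA per cell cannot be told apart. An unadjusted p under 0.05 in edgeR was found for 2548 of all 17554 tested genes, and 10.2% had every Girk3-null library below. Of 15 macrophage and myeloid markers all were tested, 0 passed in edgeR (1 lower at an unadjusted p under 0.05, 0 in DESeq2), 10 had negative log2 fold changes, the median was -0.11, and the summed level was 313 to 451 CPM in Girk3-null libraries, against 361 to 470 CPM in wild type libraries. Cd68, Lyz2, Cd14 and Tyrobp, the 4 with the highest RPKM, had log2 fold changes of 0.66, 0.02, 0.03 and -0.09. Of 10 lymphocyte markers 4 were tested (median -0.08, 0 passed in edgeR, 0 at an unadjusted p under 0.05 and 0 in DESeq2), the summed level was 3.15 to 7.84 CPM in Girk3-null libraries, against 2.49 to 6.97 CPM in wild type libraries, and the T cell gene Cd3e had 0 counts in 5 of 6 libraries.

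Endothelial markers were lower in Girk3-null libraries for 8 of 8 tested genes, with a median of -1.23. Their summed level was 22.5, 73.3 and 83.3 CPM in Girk3-null libraries, against 137, 185 and 106 CPM in wild type libraries. Erythroid markers (9 tested, median -1.22, 56.3 to 160 CPM in Girk3-null, against 78.9 to 279 CPM in wild type libraries) and skeletal muscle markers (8 tested, median -1.56, 10.6 to 24.6 and 26.4 to 62.7 CPM) were negative too, while the 10 chondrocyte markers had a median of 0.54. Every Girk3-null library lay below every wild type library for 7 endothelial, 7 muscle and 0 erythroid genes, beside 10.2% of all tested genes. For 4 chondrocyte genes every Girk3-null library lay above, beside 9.86% of all tested genes. No gene of these 4 lists passed in edgeR over all genes. At an unadjusted p under 0.05, 6 endothelial and 7 muscle genes were lower, 6 chondrocyte genes were higher and 0 erythroid genes were either. DESeq2 called 4 endothelial genes (Cldn5, Egfl7, Kdr and Tek) and 4 muscle genes lower and 3 chondrocyte genes higher after adjustment. Of all 17554 tested genes, 2548 had an unadjusted p under 0.05 in edgeR, in either direction, and DESeq2 called 339. Cdh5, Pecam1, Cldn5 and Egfl7, the endothelial genes with the highest RPKM, had log2 fold changes of -1.26, -1.18, -2.23 and -1.05. Hbb-bs, Hbb-bt, Hba-a1 and Hba-a2, globin genes of red cells, had -0.89, -1.22, -0.47 and -0.58. Acta1, Mylpf, Tnnc2 and Tnnt3, of the muscle contractile apparatus, had -1.33, -1.35, -2.45 and -0.50. Col2a1, Acan, Col9a1 and Col11a1 of cartilage matrix had 0.79, 0.28, 0.20 and 0.41.

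The members were also taken relative to the endothelial mean, a comparison chosen after the data were seen. Pydc4, Gm4955 and Ifi205 had every Girk3-null library below every wild type library, with differences of -2.51, -2.5 and -1.40 on the log2 scale. Ifi202b had every one above, with a difference of 6.25. Pydc3 and Pyhin1 then overlapped, with differences of -1.08 and -0.63. The share of all genes without overlap on this scale was not computed, and the muscle and erythroid means were not subtracted. Nothing is therefore read from which members separate. The part of these cells in the level of any member was not tested.

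Genes outside the family whose 6 values lay nearest to a member, by root mean square distance between mean-centred log2 CPM, differed between members. Nearest to Ifi204 were Hmcn1, a matrix fibulin gene, and Trim30d, at distances of 0.0883 and 0.0951. Nearest to Mndal were Slfn5 and Gbp9, from interferon-inducible families, at 0.143 and 0.165, and nearest to Ifi203 were Sema3g at 0.184 and Slfn4 at 0.265. Cldn5, a tight junction gene of endothelium, was nearest to Pyhin1, Pydc3 and Gm4955, at 0.299, 0.449 and 1.23, and Mfap5 was the next for Pyhin1 (0.362) and Gm4955 (1.32), as Akap12 was for Pydc3 (0.584). Myl1, a muscle myosin light chain, and Cldn5 were nearest to Pydc4, at 1.12 and 1.17, Sele, the endothelial selectin, and Gpr116 to Ifi205, at 0.656 and 0.671, and Gm28661 and Gm29216 to Aim2, at 0.138 and 0.151.

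Among the 12860 genes compared, which exclude RP23-436K7.4 for its low level, the nearest to Ifi202b were the acute phase genes Saa2 and Saa1, at distances of 2.51 and 2.59, where Ifi202b itself had an SD of 3.46 around its mean. Saa2 measured 158, 144 and 122 CPM in Girk3-null libraries, against 41.2, 8.19 and 49.0 CPM in wild type libraries, so it lacked the high value that Ifi202b had in wild type replicate 1.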

How the data were processed

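The deposited table holds raw counts and RPKM values for each gene and library, named as such per the file headers; the authors' RPKM equal the count over the column total and gene length. The submitters' processing notes name bcl2fastq 2.19.0, STAR 2.5.2b and mm10. Sources used here do not state which counter, annotation or strand setting was applied, nor how reads matching several genes were treated. Title numbers linked 6 count and 6 RPKM columns to their samples, and groups follow the genotype label. Replicates were numbered in deposit order. The series text calls them biological replicates.

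Counts were fitted with edgeR 4.0.16 (quasi-likelihood test, TMM scaling, genotype alone, filterByExpr with a minimum count of 10 and total of 15) in R 4.3.3, with Benjamini-Hochberg adjustment over 17554 genes. CPM are TMM-scaled, and log2 CPM used a prior count of 2. Standard errors came from the fold change and the F statistic. Alternatives used DESeq2 1.42.0, limma 3.58.1, other scalings, filters and units, a title number covariate, and each library left out. On simulated counts for the Girk3-null over wild type comparison (17253 to 17319 genes, 3 runs of 200 changed genes), 66.8% of 2-fold and 98.6% of 4-fold changes were recovered, and 6.45% of the calls were false. Simulated counts used the dispersions of the edgeR fit, and only genes whose mean CPM had a log2 above 1 were changed. The means of Pydc3, Pydc4, Gm4955, Ifi205 and Aim2 over all libraries are lower, so these rates do not cover them. Each gene was drawn independently, so differences that many genes of a library share were not simulated. In the deposited counts the same test called 1 gene. It did not call Pyhin1, Cldn5 or Tnnc2, whose log2 fold changes were -2.19, -2.23 and -2.45. The simulated rates therefore do not tell how many changes of that size were found in the deposited counts. Depth was 34279516 to 60392837 counts. All 37 mitochondrial genes were at 0.

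The members, the 9 gene lists and the other choices were made with earlier results of these data known. Of 117 list genes, 114 matched by symbol and 3 by gene identifier. Named were all members, the other family genes with a count, the nearest tested gene on each side (1 of these is not reported here), up to 4 genes per list by highest mean RPKM, and the 2 nearest patterns per member among genes whose mean log2 CPM reached 1. Strands and exons are those of GENCODE M21.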

Additional observations from a re-analysis of the deposited data

How the results depend on the processing

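The number of genes called was 1 in edgeR. It was 339 in DESeq2, 53 without the low-count filter, and 0 with library totals only, limma-voom, log2(RPKM + 0.1), log2(RPKM + 1) or the title number covariate, and 0 to 74 when each library was left out (74 without wild type replicate 3). With each library left out the ratio of summed member CPM was 0.585 to 1.05, and the log2 fold change of Ifi203 was -0.76 to 0.20. In these settings 5 to 8 members were lower without overlap, as were 11.5% to 22.2% of the genes then tested. Leaving a library out can hardly make separate groups overlap, so the lower end of 5 was fixed in advance. Ifi203 was 0.15 with the title number covariate, and 0.61 and 1.44 relative to the interferon-stimulated and endothelial means. Aim2 was 0.26 and 1.09 against those means, and Ifi204 and Mndal were 0.75 and 0.39 relative to the endothelial mean. In every case the cause was not tested. Of 160 member values over 16 alternatives, 128 moved by less than the spread between replicates, 24 moved by more without a change of sign, and 8 changed sign. Direction held in all 16 for Pydc3, Pydc4, Gm4955, Pyhin1, Ifi205 and Ifi202b. For all of these but Ifi202b, the lack of overlap meant that leaving out a library or changing the scaling could hardly turn the sign. The values of Ifi202b ranged from 0.80 to 7.73, the highest being that without wild type replicate 1. On log2(RPKM + 1) the change of Pydc4 was -0.20, since the pseudocount exceeds its level. No paired analysis was possible because the labels give the groups no shared replicate numbers. Low counts limit Pydc4, Gm4955 and Pydc3 most.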
